A study of Rattus norvegicus with 2 samples.

Results

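Notch ligands, receptors and genes of the Hes and Hey families were followed across the cell types of the fetal rat colon. The ligands were Dll1, Dll4, Jag1 and Jag2, the receptors Notch1, Notch2 and Notch3, and the family genes Hes1, Hes6 and Hey1. These 10 genes were chosen by symbol from the 28116 symbols of the count matrices, and all 10 were found. The comparison was between offspring of obese dams (maternal obesity, MO) and offspring of control dams, both wild type in genotype, at embryonic day E19.5. Each group was 1 droplet library of dissociated colon, in which every transcript carries a unique molecular identifier (UMI). The labels give neither the number nor the sex of the fetuses behind a library, and do not describe the diet or the weight of the dams.

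In Notch signalling a Delta or Jagged ligand on one cell binds a Notch receptor on its neighbour. The receptor is then cut, and its intracellular part enters the nucleus, joins the DNA-binding protein RBPJ and switches on Hes and Hey genes, which code for transcriptional repressors. In the intestinal epithelium Hes1 represses Atoh1, the factor that starts the secretory lineages, and cells that escape this repression themselves display Delta ligands. In vessels Dll4 and Jag1 of the endothelium act on endothelial Notch1 and on Notch3 of the mural cells.

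Promoter sequences are shown for the target gene Hes1, which RBPJ controls directly, for the ligand gene Dll1, and for Hes6, a gene of the same family whose searched window held no copy of the motif. Each line is the 150 bases just before the annotated start, 5′ to 3′ in the direction of the gene, from RefSeq for the build GRCr8, and capitals mark TGGGAA, the core that RBPJ binds. For Hes6 the start used by the RefSeq promoter entry lies inside the annotated gene, downstream of its outermost start, so the absence of the motif concerns this start only. The stretches lie at chr11:84213046-84213195 (strand minus) for Hes1, chr1:64993275-64993424 (strand minus) for Dll1 and chr9:99451097-99451246 (strand minus) for Hes6.
Hes1 promoter: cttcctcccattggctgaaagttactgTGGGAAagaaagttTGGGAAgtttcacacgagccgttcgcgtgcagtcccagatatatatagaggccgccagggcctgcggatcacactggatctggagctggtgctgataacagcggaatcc
Dll1 promoter: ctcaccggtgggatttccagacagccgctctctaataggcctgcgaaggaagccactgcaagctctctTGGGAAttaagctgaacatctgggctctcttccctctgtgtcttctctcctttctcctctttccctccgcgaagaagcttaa
Hes6 promoter: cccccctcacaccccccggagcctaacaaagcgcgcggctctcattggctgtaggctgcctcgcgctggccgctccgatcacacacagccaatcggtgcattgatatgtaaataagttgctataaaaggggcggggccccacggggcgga
RefSeq promoters were matched for 8 of the 10 members, Dll4 and Hey1 not being among them. TGGGAA and its reverse complement TTCCCA, which do not overlap here, were searched in the 250 bases before the start. Hes1 held TGGGAA at 123 and again at 109 bases before the start, so the 2 copies lay 14 bases apart on the same strand. Dll1 held 1 copy at 82 bases and 1 reverse copy at 185 bases, outside the printed stretch, and the other matched members held 0. Among all 33469 promoters searched, 22.1% held at least 1 copy on either strand, 2.71% at least 2, and 0.445% a pair on the same strand within 30 bases. These shares are given for scale and are no test of the Hes1 arrangement. Only exact copies of the motif were sought, so variant sites were missed, and binding of RBPJ was not tested.

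The maternal obesity library held 9714 barcodes with 120811946 UMIs and the control library 8903 barcodes with 103013814 UMIs. Barcodes were kept from 500 detected genes upward and up to 20% mitochondrial UMIs. Without the called doublets this left 7102 cells in maternal obesity and 6819 in control, with median UMI counts of 9983 in MO and 9848 in control. Haemoglobin genes took 20.8% of the UMIs in maternal obesity and 11.6% in control. The libraries shared 130 barcode sequences, 78 of them among the cells kept. Cells were grouped without using the Notch genes. Classes called "-like" carry the markers of the named type, and the remaining epithelial and mesenchymal cells stayed unnamed. Outside the epithelium and mesenchyme, clusters C14 (279 cells in MO and 193 in control) and C19 (126 in MO and 99 in control) took no name. They entered no class, so the levels and rankings below do not cover them. Levels are given as CPM, a gene's UMIs scaled to the same UMI total in every class. They are compared between classes for the same gene only, since transcript length and capture differ between genes. With 1 library per group there is no replicate spread and no test, and the 95% intervals cover counting error only.

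Among the ligands, Dll1 was most abundant in subepithelial fibroblast-like cells, the mesenchymal layer under the epithelium. Its level there was 243 CPM in maternal obesity (interval 225 to 262, 382 cells) and 219 CPM in control (interval 179.9 to 263, 89 cells). After each cell was thinned to 3000 UMIs, 37.9% of these cells in MO and 37.7% in control held a Dll1 UMI. All 10 markers of subepithelial fibroblasts were found there, summing to 2371 CPM in MO and 1377 CPM in control, and the epithelial markers summed to 328 CPM in MO and 591 CPM in control. The next classes were lymphoid-like cells, with 86.0 CPM in MO and 53.1 CPM in control, and enteric neuron-like cells. The latter had 63.3 CPM in MO and 55.7 CPM in control, so the order of these classes differed between the libraries. Blood endothelium-like cells followed with 24.5 CPM in MO and 26.4 CPM in control, but 8 of the 9 maternal obesity UMIs came from 1 cell, which also held 45 of the class's 49 UMIs of Hes5. In the epithelium Dll1 was scarce everywhere. It reached 9.87 CPM in MO and 8.40 CPM in control in the defensin-led cells and 4.69 CPM in MO and 10.2 CPM in control in goblet-like cells, the mucus-making lineage. In the unnamed epithelial cells it was 1.09 CPM in MO and 1.89 CPM in control.

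Dll4, the Delta ligand of sprouting and arterial vessels, was highest in blood endothelium-like cells in both libraries, with 87.0 CPM in maternal obesity (35 cells) and 74.3 CPM in control (39 cells). These levels lay above those of every other class in the same library. The class held UMIs of 11 of 12 endothelial markers in MO, Robo4 being at 0, and of 12 of 12 in control, summing to 6419 CPM in MO and 7129 CPM in control, beside 601 CPM in MO and 800.1 CPM in control for markers of lymphatic endothelium. In the epithelium its leading classes were secretory or defensin-led, at 17.7 CPM in MO and 14.3 CPM in control in the defensin-led cells, 9.39 CPM in MO and 18.9 CPM in control in goblet-like cells and 11 CPM in MO (13 cells) and 12.4 CPM in control (42 cells) in enteroendocrine-like cells. The counting intervals of these 3 classes overlapped within each library. Stem/progenitor-like cells followed with 3.31 CPM in MO (8 UMIs) and 10.9 CPM in control (113 UMIs). Their counting interval overlapped the enteroendocrine-like one in both libraries and the defensin-led one in control only. Unnamed epithelial cells had 2.46 CPM in MO and 3.54 CPM in control. In smooth muscle-like cells it had 0 UMIs in maternal obesity and 3 UMIs, or 0.365 CPM, in control. A low-UMI cluster with goblet genes, C10, held Dll4 at 25.5 CPM in maternal obesity (90 cells) and 129 CPM in control (301 cells). It was led by small nuclear RNAs and was left out of the classes.

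Jag1 was highest in pericyte-like cells and higher in the mesenchyme than in the epithelium. Pericyte-like cells, the mural cells of small vessels, had 117 CPM in maternal obesity (22 cells) and 191 CPM in control (38 cells). Blood endothelium-like cells had 92.4 CPM in MO and 43.1 CPM in control, and fibroblast-like cells 51.1 CPM in MO and 36.5 CPM in control. Their counting intervals lay apart in MO (64.0 to 129 and 44.7 to 58.2) and overlapped in control. In the endothelial class 24 of the 34 MO UMIs of Jag1 came from 1 cell, and without the richest cell of each library its level was 30.1 CPM in MO and 34.8 CPM in control. Every epithelial class lay at or below 10.3 CPM in maternal obesity and 5.29 CPM in control. Jag2, outside the vessels, was found in the epithelium rather than in the mesenchyme. It was highest in blood endothelium-like cells at 51.7 CPM in MO and 45.5 CPM in control and came next in enteroendocrine-like cells, the hormone-releasing lineage, at 33.1 CPM in MO and 26.1 CPM in control. In the endothelial class 8 of 19 Jag2 UMIs in MO came from 1 cell, and without the richest cell of each library the level was 33.1 CPM in MO and 33.8 CPM in control, no higher in MO than the enteroendocrine-like level. The defensin-led cells had 14.7 CPM in MO and 11.3 CPM in control, and stem/progenitor-like cells 10.3 CPM in MO and 9.52 CPM in control. In subepithelial fibroblast-like cells Jag2 had 0 UMIs in both libraries, which allows up to 1.07 CPM in maternal obesity and 5.91 CPM in control. Pericyte-like cells had none either.

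Among the receptors, Notch1 was found in all classes, and the order of its leading classes differed between the libraries. Enteric glia-like cells had 234 CPM in maternal obesity and 207 CPM in control, pericyte-like cells 151 CPM in MO and 233 CPM in control, and blood endothelium-like cells 198 CPM in MO and 134 CPM in control. Within the epithelium the stem/progenitor-like cells stood highest with 106 CPM in MO (72 cells) and 94.1 CPM in control (398 cells). Unnamed epithelial cells had 68.2 CPM in MO and 62.2 CPM in control and the defensin-led cells 54.1 CPM in MO and 43.8 CPM in control. Goblet-like cells had 9.39 CPM, from 6 UMIs, in maternal obesity and 6.65 CPM, from 32 UMIs, in control. Among all classes given here the erythroid-like cells alone were lower, with 1.24 CPM in MO and 5.76 CPM in control.

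Notch2 was highest in a mesenchymal class, but was also found in mast cell-like, enteric glia-like and mesothelium-like cells. Pacemaker cells of the gut, here called ICC-like after the interstitial cells of Cajal, had 165 CPM in maternal obesity and 95.5 CPM in control, and unnamed mesenchymal cells had 115 CPM in MO and 70.8 CPM in control. Mast cell-like cells had 80.8 CPM in MO (27 cells) and 52.0 CPM in control (20 cells), overlapping with fibroblast-like cells at 65.2 CPM in MO and 51.1 CPM in control. Mesothelium-like cells had 63.8 CPM in MO and 28.7 CPM in control, and enteric glia-like cells 53.9 CPM in MO and 31.2 CPM in control. Their counting intervals lay above that of subepithelial fibroblast-like cells in MO (20.7 CPM) and overlapped with it in control (23.6 CPM). Goblet-like cells were again low, with 0 UMIs in maternal obesity and 9 UMIs (1.87 CPM) in control. Notch3, the mural receptor, stood apart in pericyte-like cells with 272 CPM in MO and 284 CPM in control, and 50% of these cells in MO and 47.2% in control held a Notch3 UMI after thinning. Fibroblast-like cells came second with 48.9 CPM in MO and 58.5 CPM in control, most of it in sub-cluster M9, where Notch3 had 66.0 CPM in MO and 77.5 CPM in control. Heyl, a Hey-family gene of mural cells, had 204 CPM in MO and 353 CPM in control in pericyte-like cells, and Nrarp, a feedback inhibitor that Notch switches on, 197 CPM in MO and 247 CPM in control. The pericyte-like class held UMIs of all 10 pericyte markers, summing to 5932 CPM in MO and 5066 CPM in control, and of all 10 smooth muscle markers, summing to 9950 CPM in MO and 9982 CPM in control. Of 12 endothelial markers it held 4 in MO (412 CPM) and 6 in control (462 CPM), with Cdh5, Tek, Cldn5, Emcn, Tie1 and Robo4 at 0 in both libraries.

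Hes1, the main Notch-induced repressor of the gut, was found in nearly every class. Subepithelial fibroblast-like cells had 1099 CPM in maternal obesity and 1261 CPM in control, and ICC-like cells 1289 CPM in MO and 1044 CPM in control. The order of these 2 classes thus differed between the libraries. Unnamed mesenchymal cells lay close to them, with 1206 CPM in MO and 1043 CPM in control. Stem/progenitor-like cells were the highest of the epithelium with 815 CPM in MO and 890.3 CPM in control. The defensin-led cells followed with 807 CPM in MO and 654 CPM in control. In MO the counting intervals of both classes overlapped (779 to 852 and 777 to 838), so no order is shown there. Enteric neuron-like cells were low, at 92.0 CPM in MO and 94.6 CPM in control. Hes6, which counteracts Hes1 during neuronal differentiation in the mouse, was highest in enteric neuron-like cells with 272 CPM in MO and 325 CPM in control, followed by enteric glia-like cells with 165 CPM in MO and 207 CPM in control and the defensin-led cells with 165 CPM in MO and 178 CPM in control. Stem/progenitor-like cells had 119.6 CPM in MO and 193 CPM in control and goblet-like cells 109.5 CPM in MO and 177 CPM in control of Hes6, while unnamed epithelial cells had 62.4 CPM in MO and 78.8 CPM in control.

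Hey1, a Hey-family target gene, was almost missing from the epithelium. Over all epithelial-like cells it had 7 UMIs in maternal obesity and 13 UMIs in control. Enteric glia-like cells had the highest level, 175 CPM in MO and 187 CPM in control, above enteric neuron-like cells with 68.2 CPM in MO and 151 CPM in control and ICC-like cells with 41.2 CPM in MO and 95.5 CPM in control. Pericyte-like cells had 68.1 CPM in MO and 34.5 CPM in control and blood endothelium-like cells 57.1 CPM in MO and 35.9 CPM in control. Fibroblast-like cells had 27.6 CPM in MO and 54.8 CPM in control, and unnamed mesenchymal cells 26.3 CPM in MO and 49.9 CPM in control. Their counting intervals lay below those of both vessel classes in MO. In control the intervals overlapped, and the levels of fibroblast-like and unnamed mesenchymal cells were the higher. Erythroid-like cells, assumed but not shown to lack these genes, were read for a background. Haemoglobin genes took 88.7% of their UMIs in MO and 82.2% in control. Shares after thinning are therefore lowered in this class, unequally between the libraries, and set no background level for other classes. Erythroid-like cells had a Hes1 UMI in 2.71% of maternal obesity cells and 10.3% of control cells after thinning (median 20213 UMIs in MO and 17226 in control before it). For Hes6 the shares were 0.209% in MO and 2.70% in control. The other members were found in at most 0.626% of erythroid-like cells in MO and 1.08% in control.

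**Figure D1:**
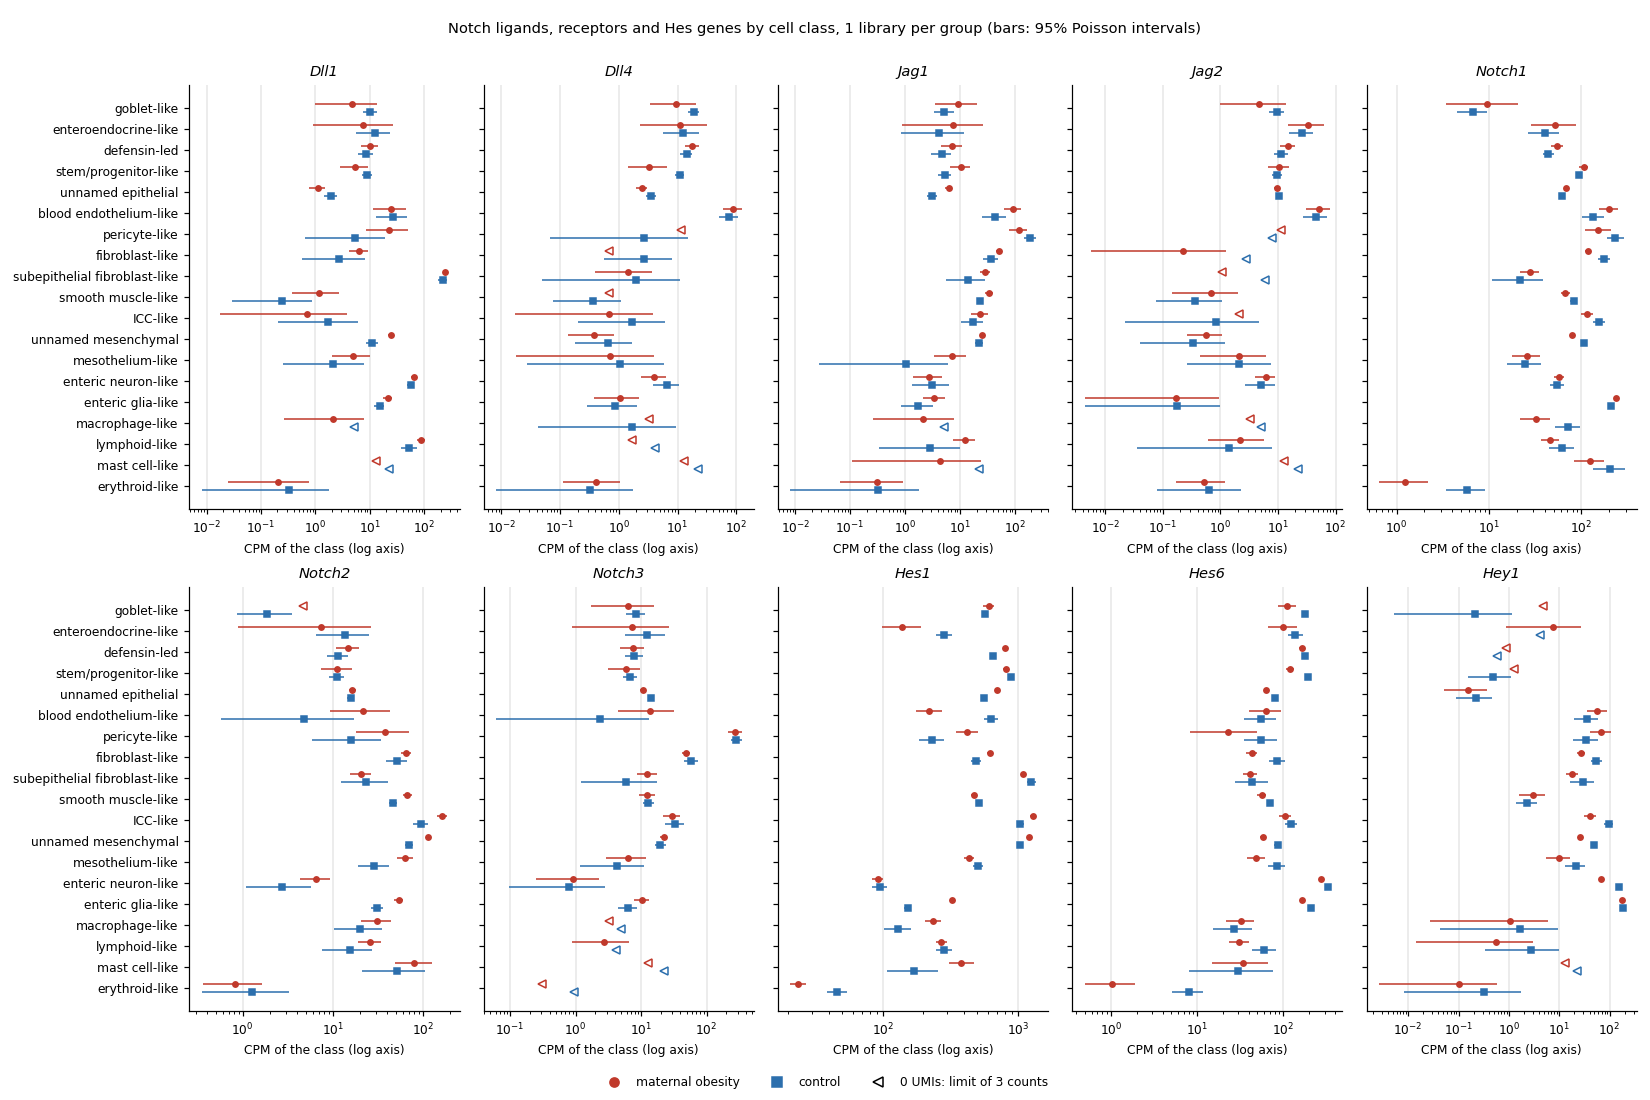
Level of each member in 19 cell classes, in CPM of the class on a log axis, with maternal obesity (red circles) above control (blue squares), 95% Poisson intervals, and open triangles at the limit of 3 counts where a class had 0 UMIs. Dll1 stands out in subepithelial fibroblast-like cells, Dll4 in blood endothelium-like cells, Notch3 in pericyte-like cells and Hes6 in enteric neuron-like cells, in both libraries. Jag2 is highest in blood endothelium-like cells, but in maternal obesity its interval there overlaps that of enteroendocrine-like cells.

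The class with the highest level was the same in both libraries for 9 of the 10 members among the named classes that had 30 or more cells per library, and for 6 to 10 members under other settings. Jag1 is counted there through 1 endothelial cell. Without the richest cell of each library Jag1 had 30.1 CPM in MO and 34.8 CPM in control in blood endothelium-like cells, and 49.3 CPM in MO and 33.3 CPM in control in fibroblast-like cells, so the leading class then differed between the libraries. The genes most like each member were sought over 32 points, 16 classes in 2 libraries, among 12304 genes, by Pearson's r of log2(CPM + 1). These r describe a pattern over classes that share libraries. Dll1 was nearest to Ahr, a ligand-activated transcription factor (r = 0.745), and Carhsp1 (0.734). Dll4 lay nearest to Lcn2, a secreted lipocalin (0.857), and to Jag2 (0.852), the one case of a member among the 2 genes nearest to another. Jag2 itself was nearest to Ttc9 (0.890) and Lcn2 (0.874), and Jag1 to Creb3l2 (0.864) and Plpp3 (0.834). The receptors were nearest to Tmpo (0.883) and Rpp30 (0.876) for Notch1, Evc (0.898) and Tgif2 (0.892) for Notch2, and Mid1 (0.892) and Ccdc8 (0.879) for Notch3. For Hes1 the nearest were Tbc1d8b (0.902) and Suclg2 (0.896), for Hes6 Tmed4 (0.945) and Hacd3 (0.936), and for Hey1 the retinoic acid receptor gene Rarb (0.930) and Sall2 (0.919).

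Between the libraries, the epithelial ligands did not move together: Dll1 and Dll4 were lower in maternal obesity, Jag1 was higher and Jag2 was about equal. Dll1 had 2.22 CPM in maternal obesity (86 UMIs) and 4.82 CPM in control (254 UMIs), a ratio of maternal obesity over control of 0.461 (interval 0.357 to 0.591). Dll4 had 4.00 CPM in MO and 7.55 CPM in control (ratio 0.530, 0.438 to 0.640), and Jag1 had 6.61 CPM in MO and 3.89 CPM in control (1.70, 1.41 to 2.05). Jag2, at 10.2 CPM in MO and 10.4 CPM in control, gave 0.983 (0.861 to 1.12). The receptors differed by less than 1.5-fold. Notch1 had 68.2 CPM in MO and 61.3 CPM in control (1.11, 1.06 to 1.17), Notch2 15.6 CPM in MO and 13.1 CPM in control (1.19, 1.06 to 1.33) and Notch3 9.92 CPM in MO and 11.7 CPM in control (0.850, 0.747 to 0.967). Hes1 had 713 CPM in MO and 635 CPM in control (1.12, 1.10 to 1.14), while Hes6 had 75.9 CPM in MO and 121 CPM in control (0.628, 0.601 to 0.656). In all, 1 member was at least 1.5-fold higher and 3 were at least 1.5-fold lower of 10 measured, where 11.9% of the 13388 genes with at least 20 UMIs were higher and 11.8% lower.

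These pooled ratios combine cells of different make-up. Goblet-like cells were 40 of 1282 epithelial-like cells in maternal obesity and 411 of 2621 in control, and stem/progenitor-like cells were 72 in MO and 398 in control. When equal weight was given to the 10 sub-clusters that had 30 or more cells per library, the mean log2 ratio was -0.05 for Dll1 and -0.29 for Dll4, with 5 and 4 of the 10 sub-clusters higher in maternal obesity. Jag1 kept a mean log2 ratio of 0.80 and was higher in 10 of 10 sub-clusters. Hes6 had a mean of -0.39 and was higher in 0 of 10, and Hes1 had a mean of 0.21 and was higher in 9 of 10. Only Jag1 remained past 1.5-fold with equal weights. As shares of thinned cells, Hes6 was found in 18.0% of maternal obesity cells (15.9 to 20.3) and 26.6% of control cells (24.9 to 28.4), and Jag1 in 1.54% (0.932 to 2.40) in MO and 1.22% (0.827 to 1.74) in control. Without thinning, 70.3% of the cells in MO and 70.0% in control held a Hes6 UMI, at median depths of 24523 UMIs in MO and 16412 UMIs in control.

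**Figure D2:**
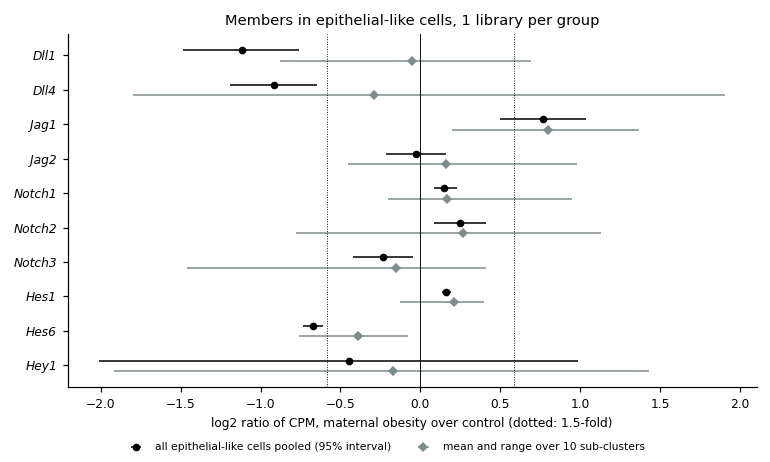
Log2 ratio of CPM in maternal obesity over control for each member in epithelial-like cells, pooled (black circles, 95% intervals) and as the mean and range over 10 equally weighted sub-clusters (grey diamonds), with dotted lines at 1.5-fold. For Dll1 the pooled log2 ratio of -1.11 and the equally weighted mean of -0.05 lie far apart, whereas for Jag1 they are 0.77 and 0.80.

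Within the epithelial classes the members were compared one class at a time. In goblet-like cells 1 of 8 measured members was at least 1.5-fold higher and 4 were lower, where 11.3% of all genes were higher and 15.6% lower, but only Hes6 had an interval clear of 1 (109.5 CPM in MO and 177 CPM in control, ratio 0.619, 0.478 to 0.790). In stem/progenitor-like cells 1 of 9 was higher and 3 were lower, where 7.30% of all genes were higher and 7.68% lower. Dll4 had 3.31 CPM in MO and 10.9 CPM in control there (8 UMIs in MO and 113 in control, ratio 0.305, 0.128 to 0.621), Hes6 119.6 CPM in MO and 193 CPM in control (0.619, 0.546 to 0.701) and Jag1 10.3 CPM in MO and 5.29 CPM in control (1.96, 1.17 to 3.19). Notch1, by comparison, had 106 CPM in MO and 94.1 CPM in control in these cells (1.12, 0.973 to 1.29). In the defensin-led cells 1 of 9, Jag1, was higher, with an interval that included 1, and 0 were lower, where 12.7% of all genes were higher and 5.75% lower. In the unnamed epithelial cells 1 of 9 was higher and 1 lower, where 12.3% of all genes were higher and 11% lower. Jag1 had 6.21 CPM in MO and 3.10 CPM in control (2.01, 1.57 to 2.58) and Dll1 1.09 CPM in MO and 1.89 CPM in control (0.576, 0.369 to 0.889).

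The rest of the pathway was taken from a list of 83 genes grouped by role, of which 81 were in the files and 69 had at least 20 UMIs in epithelial-like cells. Of these, 6 were at least 1.5-fold higher in maternal obesity and 19 lower, where 11.9% of all genes were higher and 11.8% lower, and the median log2 ratio was -0.06, beside 0.05 over all genes. The counts by role that follow are to be read beside the same shares. With sub-clusters weighted equally 7 genes passed 1.5-fold in place of 25. Of the 5 secretory lineage factors measured in the pooled cells 0 were higher and 4 were lower, Atoh1, Spdef and Gfi1 among them. Within classes the counts differed. Goblet-like cells had 0 of 3 higher and 1 lower, and the defensin-led cells 2 of 4 higher and 0 lower. Stem/progenitor-like cells had 0 of 4 higher and 2 lower, and unnamed epithelial cells 0 of 4 higher and 1 lower. The shares over all genes of each class are given above. The ratios that follow are again pooled. Atoh1 had 32.0 CPM in MO and 51.1 CPM in control (0.627, 0.585 to 0.670), Spdef, a goblet factor, 72.7 CPM in MO and 185 CPM in control (0.393, 0.377 to 0.410) and Gfi1 2.22 CPM in MO and 4.12 CPM in control (0.540, 0.415 to 0.696). Neurog3, the enteroendocrine factor, had 7.26 CPM in MO and 5.06 CPM in control (1.43, 1.21 to 1.70).

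Of the 5 ligand genes measured 2 were higher and 2 lower, and beside the members Dll3, a member of the Delta family that does not activate Notch on neighbouring cells, had 2.32 CPM in MO and 1.35 CPM in control (1.73, 1.25 to 2.39). Of the 4 receptor genes 0 were higher and 1, Notch4, was lower, with 3.77 CPM in MO and 10.7 CPM in control (0.353, 0.292 to 0.424). Receptor glycosylation genes had 0 of 5 higher and 2 lower, the Fringe glycosyltransferases Lfng and Mfng. These enzymes, which tune the response of receptors to ligands, had 7.46 CPM in MO and 12 CPM in control (0.624, 0.541 to 0.718) and 1.42 CPM in MO and 2.14 CPM in control (0.663, 0.471 to 0.923). Of the 9 cleavage genes 0 were higher and 2 lower. The convertase Furin had 15.1 CPM in MO and 27.7 CPM in control (0.543, 0.492 to 0.598) and Aph1b, a subunit of gamma-secretase, 18.1 CPM in MO and 31.2 CPM in control (0.581, 0.531 to 0.635). The gamma-secretase subunits Aph1a, with 141 CPM in MO and 151 CPM in control, Ncstn, with 108 CPM in MO and 113 CPM in control, and Psenen, with 75.3 CPM in MO and 62.5 CPM in control, stayed within 1.5-fold. So did the glycosyltransferases Pofut1 (25.3 CPM in MO and 20 CPM in control) and Rfng (19.0 CPM in MO and 21.3 CPM in control). Ligand ubiquitin ligases had 1 of 5 higher and 1 lower. Neurl1, one of them, had 6.41 CPM in MO and 15.7 CPM in control (0.408, 0.353 to 0.471), whereas Mib1, another ligase of the ligands, had 25.8 CPM in MO and 19.8 CPM in control and Neurl3 45.3 CPM in MO and 37.2 CPM in control.

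In the nuclear complex 0 of 5 were higher and 1, Maml2, was lower. Rbpj had 21.7 CPM in MO and 17.0 CPM in control (1.27, 1.16 to 1.40), and the co-activator Maml2 had 0.568 CPM in MO and 1.08 CPM in control (0.526, 0.306 to 0.873). Snw1, with 79.6 CPM in MO and 102 CPM in control, Maml1, with 12.4 CPM in MO and 13.9 CPM in control, and the corepressor gene Hdac1, with 256 CPM in MO and 236 CPM in control, differed by less than 1.5-fold. The same held for the corepressors Spen (35.5 CPM in MO and 33.9 CPM in control) and Cir1 (41.9 CPM in MO and 41.0 CPM in control). Among endocytic and degradative inhibitors 2 of 8 were higher and 0 lower. Itch, a ligase that helps to degrade Notch, had 14.1 CPM in MO and 7.30 CPM in control (1.93, 1.69 to 2.21), while the inhibitor Numb had 12 CPM in MO and 8.02 CPM in control (1.49, 1.31 to 1.71) and Dtx2 17.3 CPM in MO and 21.9 CPM in control. The role listed as transcriptional targets had 1 of 6 higher and 2 lower, Hes6 among them. Hes6 is listed there as a gene of the Hes family, and whether it responds to Notch in these cells was not tested. Nrarp had 23.3 CPM in MO and 38.3 CPM in control (0.609, 0.562 to 0.659). Hes5, a neural Hes gene, had 76 UMIs in maternal obesity and 7 in control. Other genes past 1.5-fold with an interval clear of 1 were Dlk1, Tle1, Efnb2 and Nrp1, all lower, and Neurl1b, higher at 27 UMIs in MO and 15 UMIs in control. The non-canonical ligands Egfl7 (7.62 CPM in MO and 9.01 CPM in control) and Mfap2 (4.62 CPM in MO and 4.46 CPM in control) and the venous genes Nr2f2 (17.0 CPM in MO and 19.2 CPM in control) and Ephb4 (23.5 CPM in MO and 23.9 CPM in control) stayed within 1.5-fold.

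Cells that held a Delta UMI were compared with the other epithelial-like cells of the same library after thinning to 3000 UMIs. Dll1 was found in 10 maternal obesity cells and 39 control cells, or 0.812% and 1.59% of the thinned cells, whereas 4.37% of the maternal obesity cells and 7.36% of the control cells held one before thinning. Hes6 had 300.0 CPM in the Dll1 cells and 70.2 CPM in the others in maternal obesity (ratio 4.28, 1.93 to 8.24), and in control 265 CPM in the Dll1 cells and 117 CPM in the others (2.26, 1.53 to 3.24). Atoh1 was likewise higher in the Dll1 cells, by ratios of 5.48 (2.17 to 11.6) in MO and 3.80 (2.46 to 5.65) in control. Hes1 was not detectably different, with ratios of 1.15 (0.730 to 1.74) in MO and 0.991 (0.774 to 1.25) in control. Notch1 had 0 UMIs in the 10 Dll1 cells of maternal obesity and a ratio of 0.315 (0.0380 to 1.15) in control.

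Dll4 was found in 14 maternal obesity cells and 64 control cells. Their Hes6 ratio over the other cells was 4.47 (2.35 to 7.78) in maternal obesity and 1.64 (1.15 to 2.28) in control, and their Hes1 ratio was 1.77 (1.30 to 2.35) in MO and 1.37 (1.17 to 1.61) in control. Atoh1 gave 2.19 (0.589 to 5.71) in MO and 2.77 (1.86 to 3.99) in control. Defensin-led cells were 5 of the 10 Dll1 cells in MO and 3 of the 39 in control, beside 9.91% of all thinned epithelial-like cells in MO and 7.38% in control. Goblet-like cells were 1 of the 10 in MO and 17 of the 39 in control, beside 3.01% of all in MO and 15.5% in control. Both classes had more Hes6 than the unnamed epithelial cells, and the part of class in these ratios was not tested. Jag2 cells had Hes6 ratios of 1.37 (0.699 to 2.44) in MO (41 cells) and 0.832 (0.545 to 1.22) in control (90 cells). Their Atoh1 ratios were 1.90 (0.892 to 3.58) in MO and 2.22 (1.52 to 3.14) in control, so higher Atoh1 was not particular to the Delta cells. Hes1 in the Jag2 cells gave 1.30 (1.06 to 1.58) in MO and 1.16 (1.00 to 1.35) in control. In subepithelial fibroblast-like cells, the Dll1 cells had a Hes1 ratio of 0.674 (0.596 to 0.761) in maternal obesity (138 cells) and 0.933 (0.732 to 1.18) in control (29 cells).

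**Figure D3:**
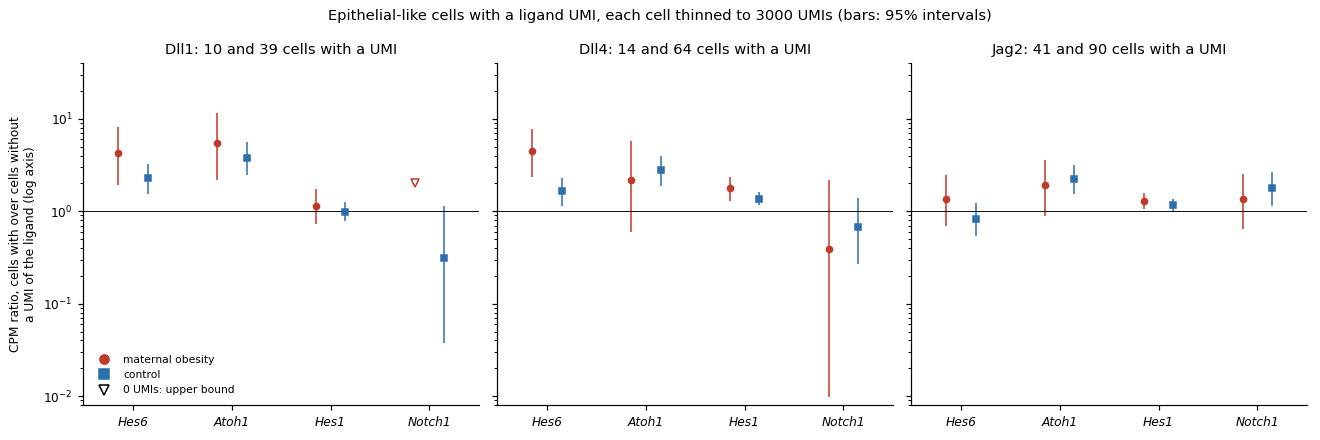
CPM of Hes6, Atoh1, Hes1 and Notch1 in epithelial-like cells with a UMI of Dll1, Dll4 or Jag2, as a ratio over the cells without one on a log axis, for maternal obesity (red circles, left) and control (blue squares, right) with 95% intervals and an open triangle at the upper bound where the cells had 0 UMIs. Hes6 and Atoh1 lie above 1 for Dll1 cells in both libraries, and Hes1 of Dll1 cells lies close to 1.

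Hes1 differed between sub-clusters in both libraries. The goblet-like sub-cluster E8 gave 60.6 CPM in MO (9 cells) and 195 CPM in control (90 cells), and the goblet-like E14 gave 686 CPM in MO (30 cells) and 686 CPM in control (257 cells). Sub-cluster E6, led by the embryonic globin genes Hbe1 and Hbz, had 229 CPM in MO and 211 CPM in control of Hes1, whereas the stem/progenitor-like sub-cluster E10 had 815 CPM in MO and 890.3 CPM in control. The summed level of 7 immediate early genes, which respond to stimuli within minutes, was also low in E6 (496 CPM in MO and 782 CPM in control) and E8 (715 CPM in MO and 2244 CPM in control) and higher in E10 (4164 CPM in MO and 5327 CPM in control) and E14 (9035 CPM in MO and 11023 CPM in control). Nr4a1, an immediate early gene, was among the genes that led E14. The part of these genes in the Hes1 differences was not tested. In the fibroblast-like sub-cluster M9, Hes1 was low at 349.9 CPM in MO and 350.1 CPM in control, beside an immediate early sum of 10840 CPM in MO and 7639 CPM in control. M9 also held more Notch1, at 155 CPM in MO and 192 CPM in control, and more Jag1, at 71.2 CPM in MO and 52.1 CPM in control, than the other fibroblast-like sub-cluster M4, where Notch1 had 50.5 CPM in MO and 136 CPM in control and Jag1 14.5 CPM in MO and 2.89 CPM in control.

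**Figure D4:**
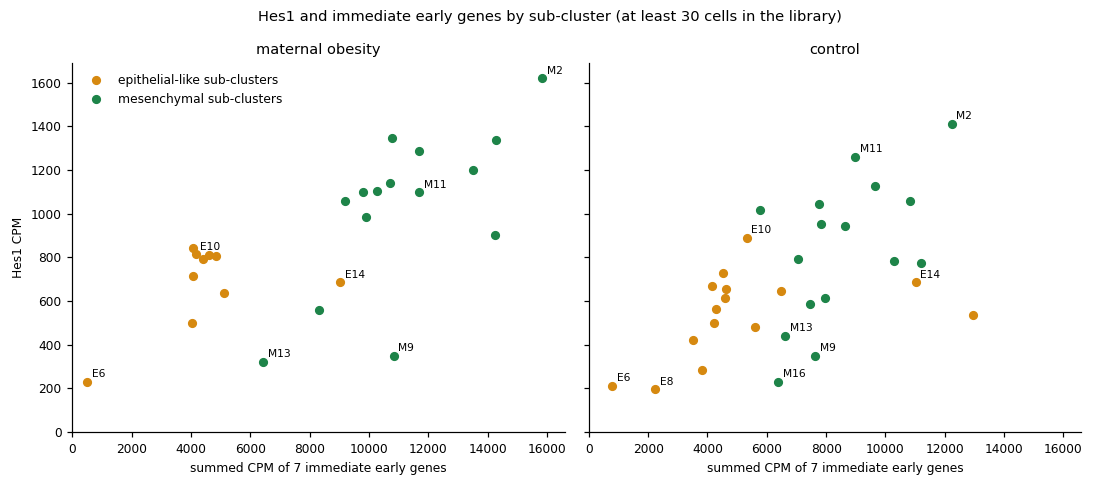
Hes1 level against the summed level of 7 immediate early genes, both in CPM, for sub-clusters with at least 30 cells in the library, maternal obesity on the left and control on the right. E6 lies low on both axes in both libraries, and M9 is low for Hes1 at 349.9 CPM in MO and 350.1 CPM in control with a high immediate early sum.

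In blood endothelium-like cells 2 of 8 measured members were higher and 1 was lower, where 18.9% of all genes were higher and 12.4% lower. Hes1 had 220.2 CPM in maternal obesity (81 UMIs) and 637 CPM in control (266 UMIs), a ratio of 0.346 (0.266 to 0.445). Without the cell richest in Hes1 in each library the ratio was 0.344 (0.253 to 0.463), and in thinned cells 0.349 (0.179 to 0.641). The immediate early sum was 1120 CPM in MO and 5289 CPM in control in these cells, the summed epithelial markers 212 CPM in MO and 1461 CPM in control, and their parts were not tested. Of the 5 transcriptional targets measured in this class 2 were higher and 2 lower. Nrarp, like Hes1, was lower, with 237 CPM in MO and 498 CPM in control (0.475, 0.365 to 0.613). Hey1 was higher, with 57.1 CPM in MO and 35.9 CPM in control, but with an interval that included 1 (1.59, 0.781 to 3.31), and the other higher target was Hes5, of whose 49 MO UMIs 45 came from 1 cell. Hey2, with 10 UMIs in MO and 2 in control, was too scarce to be counted. Jag1 had 92.4 CPM in MO and 43.1 CPM in control (2.14, 1.18 to 4.03), but 24 of its 34 maternal obesity UMIs came from 1 cell, and without the richest cell of each library the ratio was 0.865 (0.344 to 2.09). That cell also held 12 of 32 Dll4 UMIs and 20 of the 28 UMIs of the arterial gene Gja5. Notch1 had 198 CPM in MO and 134 CPM in control (1.48, 1.03 to 2.13), and Dll4 differed by less than 1.5-fold.

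In the mesenchyme Notch2 was at least 1.5-fold higher in maternal obesity in ICC-like and unnamed cells, and Hey1 at least 1.5-fold lower in these, in fibroblast-like and in subepithelial fibroblast-like cells, the last with an interval that included 1 (0.615, 0.340 to 1.18). In fibroblast-like cells Notch2 gave 1.28 (0.955 to 1.73). Other classes pointed the other way with intervals that included 1, Notch2 at a ratio of 0.874 (0.464 to 1.79) in subepithelial fibroblast-like cells and Hey1 at 1.30 (0.591 to 2.78) in smooth muscle-like cells. Pericyte-like cells, of which MO had 22, held 68.1 CPM in MO and 34.5 CPM in control of Hey1. ICC-like cells had 165 CPM in MO and 95.5 CPM in control of Notch2 (1.73, 1.37 to 2.18) and 41.2 CPM in MO and 95.5 CPM in control of Hey1 (0.432, 0.310 to 0.596), the only 1 higher and the only 1 lower of 7 members there, where 17.3% of all genes were higher and 6.27% lower. Fibroblast-like cells had 1 of 8 members higher and 2 lower, beside 21.1% and 7.14% of all genes, with Hey1 at 27.6 CPM in MO and 54.8 CPM in control (0.503, 0.367 to 0.697) and Hes6 at 42.8 CPM in MO and 84.9 CPM in control (0.504, 0.391 to 0.653). Unnamed mesenchymal cells had 2 of 8 higher and 1 lower, beside 18.9% and 3.67% of all genes, with Notch2 at 115 CPM in MO and 70.8 CPM in control (1.62, 1.46 to 1.81), Hey1 at 26.3 CPM in MO and 49.9 CPM in control (0.528, 0.454 to 0.614) and Dll1 at 24.3 CPM in MO and 11 CPM in control (2.22, 1.70 to 2.92). Smooth muscle-like cells had 0 of 7 higher and 0 lower, beside 16.7% and 5.75%, with Notch2 at 67.2 CPM in MO and 46.5 CPM in control (1.44, 1.24 to 1.69). In subepithelial fibroblast-like cells 2 of 8 were higher and 1 lower, beside 21.8% and 10.8%, all with intervals that included 1, and Dll1 differed by less than 1.5-fold. Mesothelium-like cells had 1 of 5 higher and 2 lower, beside 8.17% and 34.7%, among them Notch2 at 63.8 CPM in MO and 28.7 CPM in control (2.22, 1.43 to 3.55), beside a median log2 ratio of -0.37 over all genes and haemoglobin shares of 34.4% in MO and 10.3% in control.

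The neural and blood classes are given for comparison. Enteric glia-like cells had 4 of 8 members at least 1.5-fold higher and 0 lower, where 18.5% of all genes were higher and 4.37% lower. Hes1 had 327 CPM in MO and 153 CPM in control in them (2.14, 1.98 to 2.32), beside an immediate early sum of 1867 CPM in MO and 948 CPM in control, and Notch2 had 53.9 CPM in MO and 31.2 CPM in control (1.73, 1.43 to 2.09). Enteric neuron-like cells had 1 of 9 higher and 2 lower, beside 16.7% and 5.65% of all genes, with Hey1 at 68.2 CPM in MO and 151 CPM in control (0.451, 0.387 to 0.526). Macrophage-like cells had 2 of 4 higher and 1 lower, beside 19.2% and 8.52%, among them Hes1 at 235 CPM in MO and 129 CPM in control (1.82, 1.40 to 2.39). Lymphoid-like cells had 3 of 6 higher and 1 lower, beside 15.3% and 12.3%, with Dll1 at 86.0 CPM in MO and 53.1 CPM in control (1.62, 1.13 to 2.37) and Hes6 at 30.9 CPM in MO and 60.1 CPM in control (0.513, 0.339 to 0.782). Erythroid-like cells had 0 of 3 higher and 3 lower, where 1.84% of all genes were higher, 79.7% were lower and the median log2 ratio was -1.22.

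**Figure D5:**
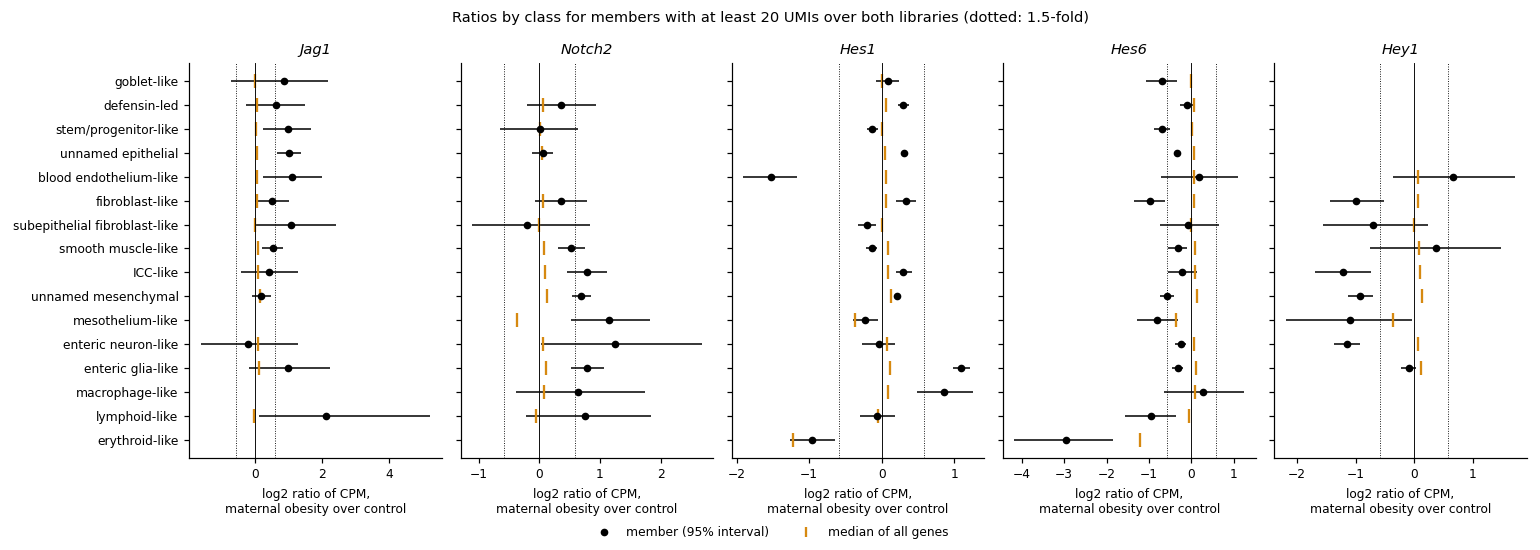
Log2 ratio of CPM in maternal obesity over control for Jag1, Notch2, Hes1, Hes6 and Hey1 in each class of 30 or more cells per library (black circles, 95% intervals), with the median of all genes in that class as an orange tick and dotted lines at 1.5-fold. Hey1 lies left of 0 in ICC-like and enteric neuron-like cells, Notch2 right of 0 in ICC-like and enteric glia-like cells, and Hes1 on opposite sides in blood endothelium-like and enteric glia-like cells.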

How the data were processed

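Single-cell RNA of fetal rat colon was measured in 1 maternal obesity and 1 control library. The authors deposited UMI counts for each gene in each barcode, not normalised. Per the file headers they came from cellranger 6.1.2, whereas Cell Ranger 2.1.1 stands in the submitters' processing notes, and which of these made them could not be settled. A genome build was not given in the sources used here. Counts of identifiers that share a symbol were added. In scanpy 1.11.5, doublets were called with Scrublet at an expected 0.8% per 1000 barcodes and removed (134 cells or 1.85% in maternal obesity against 7.77% expected, and 60 cells or 0.872% in control against 7.12% expected, so many will remain). Counts were scaled to 10000 per cell and logged, and 2000 variable genes without the Notch pathway genes, 30 components and 15 neighbours gave Leiden clusters at resolution 1, with epithelial and mesenchymal cells clustered again.

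A cluster took a marker list's name when its 10 leading genes held 2 or more of that list, or when the list led by 0.5 with a mean log2 of at least 1, with at least 3 markers higher; this rule was set after the clusters were seen. Sub-clusters led by another compartment's markers and low-UMI clusters (median below that of the library divided by 3) were set aside. So were the clusters outside the epithelium and mesenchyme that took no name, C14 and C19. The defensin-led cluster was left without a type name, since its Paneth and defensin list summed to 1084 CPM in maternal obesity and 169.9 CPM in control. Ratios of summed counts have exact conditional binomial intervals, levels exact Poisson and shares exact Clopper-Pearson intervals at 95%, and log2 ratios add 0.5 UMIs to each sum. A count of 0 allows up to 3 counts. A gene was measured with at least 20 UMIs in both libraries together. Medians of log2 ratios and shares of genes past 1.5-fold over all genes are given for scale only. They include genes with as few as 20 UMIs and do not replace a test, which 1 library per group does not allow. The ratio step was tested on simulated counts.

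The members and gene lists were chosen with earlier results of these data known. Named genes were the 10 members, the 3 most abundant genes of each role and those past 1.5-fold with an interval clear of 1 in epithelial-like cells, and the 2 genes most like each member; Gja5, Heyl and Hes5 of vessels and the low-UMI clusters were named after their values were seen. A gene of the pathway list is not reported here. Other settings of the filters, clustering, scaling and thinning were tried.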

Additional observations from a re-analysis of the deposited data

Results flagged for a closer look

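Hes1 differed between the libraries in opposite directions by class. Its log2 ratio of maternal obesity over control was 1.10 in enteric glia-like cells and 0.86 in macrophage-like cells, but -1.53 in blood endothelium-like cells and -0.96 in erythroid-like cells. In the erythroid-like class the median log2 ratio over all genes was -1.22, and the sign of the Hes1 value changed to 0.39 at a mitochondrial limit of 10% and 0.61 with at least 1000 genes per barcode. The difference between the classes was not tested. The immediate early sum was 1867 CPM in maternal obesity and 948 CPM in control for enteric glia-like cells, 1120 CPM in maternal obesity and 5289 CPM in control for blood endothelium-like cells, and 4131 CPM in maternal obesity and 4004 CPM in control for macrophage-like cells, and its part was not tested.

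Low-UMI clusters, which entered no class, also held differences. Notch1 was higher in maternal obesity in the granulocyte-gene cluster C26, with a ratio of 2.60 (1.20 to 5.96), and Notch2 in cluster M10, a mesenchymal cluster led by haemoglobin genes, with a ratio of 1.79 (1.05 to 3.06). Other intervals there also left out 1. In cluster C23 Hes6 had 15.2 CPM in MO and 95.6 CPM in control (0.159, 0.0543 to 0.385) and Hes1 516 CPM in MO and 744 CPM in control (0.694, 0.574 to 0.838). In cluster C10 Dll4 gave 0.197 (0.0521 to 0.533) and Hes1 0.766 (0.581 to 0.998). Dll1 had 10 UMIs in MO and 0 in control in cluster C26.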

How the results depend on the processing

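No paired analysis was possible because each group is 1 library and the groups share no replicate number, and no library could be left out. Of 878 values of single members under other settings, 778 stayed within their counting interval, 92 moved beyond it and 8 were counted as changed in sign. In epithelial-like cells the count of members past 1.5-fold was 4 in the main analysis and 1 with sub-clusters weighted equally; the pathway count was 25 and became 7. The number of members found in a larger share of maternal obesity cells was 3 after thinning and 7 without it, beside the deeper maternal obesity cells.

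The values counted as changed in sign are given as log2 ratios of maternal obesity over control. Notch1 in erythroid-like cells (main -2.19) gave 2.23 at a mitochondrial limit of 10% and 0.15 with at least 1000 genes per barcode. Hes1 in these cells (main -0.96) gave 0.39 and 0.61 under the same settings. In smooth muscle-like cells Hes1 gave 0.16 with ComBat adjustment. In mesothelium-like cells it gave 0.25 over UMIs without haemoglobin, mitochondrial and ribosomal protein genes. Jag1 in blood endothelium-like cells gave -0.19 without the richest cell of each library, and Notch2 in epithelial-like cells -0.27 in cells thinned to 3000 UMIs. The last 2 settings were chosen after seeing the data. The Jag1 change follows from leaving out 1 cell with 24 of 34 UMIs. For the others the cause was not tested. Further values crossed a ratio of 1 without being counted there. Among them, in unnamed epithelial cells thinned to 3000 UMIs, Notch1 had a ratio of 0.969 (main 1.10) and Notch2 of 0.741 (main 1.04). The mean log2 Hes6 ratio of Dll1 cells over other epithelial-like cells was 1.64, and 1.23 to 1.88 under other settings. Dll1, Dll4 and Jag1 of the epithelium rest on 86 to 398 UMIs per library, and vessel classes on 22 to 39 cells per library.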

Other observations

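The low-UMI cluster C10, which carries goblet genes and is led by small nuclear RNAs, had Dll4 at 25.5 CPM in maternal obesity (4 UMIs) and 129 CPM in control (59 UMIs), a ratio of 0.197 (0.0521 to 0.533). The goblet-like sub-cluster E15, with 64 control cells, had Dll4 at 52.5 CPM, against 19.0 CPM in E14 and 9.82 CPM in E8 of the same library. Dll1 in E15 was 30 CPM, against 8.22 CPM in E14.

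Neurog3 in the defensin-led cells had 56.8 CPM in maternal obesity and 17.4 CPM in control, and Atoh1 190.3 CPM in maternal obesity and 159.9 CPM in control.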
